A study of Citrus x clementina and Citrus japonica with 6 samples.

Results

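The genes described here are those annotated as proteins of the cytosolic ribosome in fruit of kumquat and Clementine mandarin. A gene model was counted as a member when its first KEGG orthology name was a large or small subunit ribosomal protein with a eukaryotic name ending in e, or was LP0, LP1 or LP2. This gave 358 of the 30139 gene models of the table, 240 of the large and 118 of the small subunit, under 75 protein names. The choice used names and no measured values. Cytosolic ribosomes translate nuclear messenger RNA. Their small subunit binds and decodes the message, their large subunit joins the amino acids, and growing fruit tissue needs many of both. In plants most ribosomal proteins are encoded by small families of near-identical genes, so a protein can be supplied by several gene models at once.

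Messenger RNA was measured by RNA-seq in 3 libraries of kumquat fruit (Fortunella japonica) and 3 of Clementine mandarin fruit, both untreated and grown in the same field collection. Each library pooled fruit of 5 stages. Counted in days from flowering, the kumquat stages were 15, 30, 45, 80 and 120, and the clementine stages were 15, 30, 45, 100 and 180, so that species and fruit age differ together. Kumquat is given by the cultivar label and the design text, although the stage label of the same libraries names Clementine mandarin. Material came from 3 individual plants per the design text, no library is tied to a plant, and the p-values measure only the spread between these libraries. Pooled whole fruit holds many cell types, and fewer cells of a type cannot be told apart from less RNA per cell. Values are FPKM, in which fragment numbers are divided by the length of the model and the size of the library, which allows levels of different genes to be set side by side.

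The label was checked against the other annotation of the same models. A gene ontology (GO) term for the ribosome, a ribonucleoprotein complex or a structural molecule was present for 193 of the 358 models. Such a term is called ribosomal here, and biological process terms were not used for it. Another 70 carried the ribosomal KEGG name alone, and 95 carried a further KEGG name or GO terms of another kind. L18Ae was the most mixed name, with 60 models, of which 3 had a ribosomal GO term and 17 a peptidase GO term, and many of the 60 were also named saccharopepsin, an aspartic protease. L18e held 9 models also named as a ubiquitin hydrolase, and S3Ae held 11 also named as the receptor kinase FLS2. The label therefore covers models that need not be ribosomal proteins, and counts are given with and without them. The ribosomal GO term also misses members, since LP0, LP2, S6e and S26e had none among their models, so neither set is taken as complete.

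Cytosolic ribosomal protein transcripts made up about the same part of the fruit transcriptome in both species. All 358 models together held 5.71, 6.11 and 6.21% of the FPKM sum in the kumquat libraries, against 5.61, 5.91 and 5.88% in the clementine libraries. Large subunit models held 3.55, 3.80 and 3.87% in kumquat and 3.54, 3.73 and 3.72% in clementine. Small subunit models held 2.16, 2.31 and 2.34% in kumquat and 2.07, 2.18 and 2.16% in clementine. The libraries of the species overlapped in each of these 3 totals. In the 193 models with a ribosomal GO term the total was 4.72, 5.11 and 5.20% in kumquat against 4.53, 4.81 and 4.78% in clementine, which also overlapped. In each of these totals only kumquat library 1 fell within the clementine range. Kumquat libraries 2 and 3 lay slightly above every clementine library. The opposite side came from the 95 models with another name or GO term, at 0.308, 0.292 and 0.291% in kumquat and 0.447, 0.443 and 0.441% in clementine, with no overlap. The 60 L18Ae models, which fall in all 3 annotation classes, held 0.217 ± 0.00211% in kumquat and 0.317 ± 0.00391% in clementine (SD, n = 3 each). No p-value is given for such totals.

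**Figure D1:**
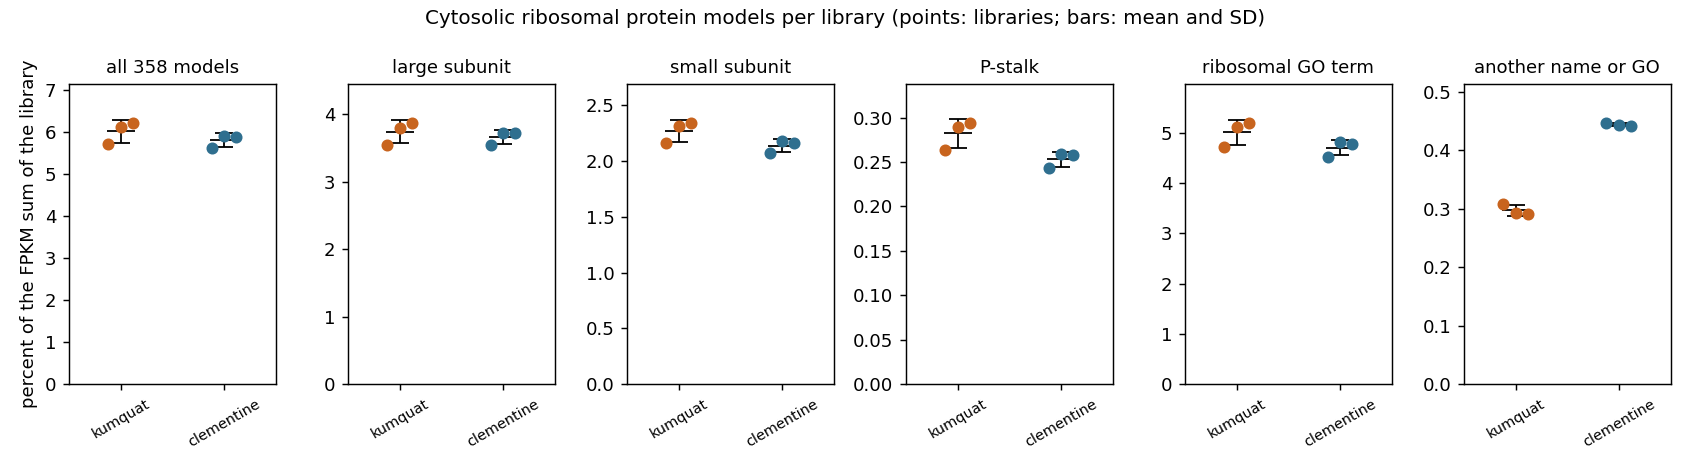
Percent of the FPKM sum of each library (y axis, from 0) held by cytosolic ribosomal protein models, in kumquat (left, orange) and clementine (right, blue), with the mean and SD of 3 libraries as bars. The libraries overlap for all 358 models, both subunits and the models with a ribosomal GO term, and stand apart for the P-stalk, higher in kumquat, and for models with another name or GO term, lower in kumquat.

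In each species the library numbered 1 had the lowest ribosomal protein total. Among 71 proteins summed over models with a ribosomal GO term, this library was the lowest of its species in 56 in kumquat and in 49 in clementine. Without both of these libraries the total over all 358 models differed by 0.267 percentage points (kumquat minus clementine), against 0.210 with all 6. Every remaining kumquat library was then above every remaining clementine one. That comparison was chosen after the data were seen. Marker lists for other tissues also moved between the species. Markers of dividing cells, 47 models, summed to 0.185 to 0.214% in kumquat and 0.292 to 0.314% in clementine, with 3 of 42 tested models higher in kumquat and 24 lower. Markers of green tissue, 74 models, summed to 1.60 to 1.75% in kumquat and 1.84 to 2.00% in clementine, with 7 of 61 tested higher and 32 lower. Seed markers rested on 3 models, all higher, at 0.357 to 0.420% in kumquat and 0.0926 to 0.115% in clementine. Vascular markers, 32 models, summed to 0.0874 to 0.101% in kumquat and 0.0608 to 0.0652% in clementine, although 13 of 22 tested were lower and 4 higher. No marker model was at 0 in all 6 libraries, and their part in the ribosomal protein values was not tested.

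The balance of the subunits depended on which models were counted. Large over small subunit FPKM was 1.64, 1.64 and 1.65 in kumquat and 1.71, 1.71 and 1.72 in clementine, with no overlap. With only models that had a ribosomal GO term it was 1.44, 1.44 and 1.45 in kumquat and 1.41, 1.40 and 1.42 in clementine, also with no overlap but in the other direction. The cytosolic total stood further above that of bacterial-type ribosomal proteins, which serve plastids and mitochondria, in kumquat than in clementine. This ratio was 10.3, 10.7 and 10.9 in kumquat and 8.22, 8.53 and 8.56 in clementine, a log2 difference of 0.33, and 0.37 with ribosomal GO models only.

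At the level of single proteins, with all models of a name summed within a library, most differences were small and went both ways. All 75 proteins were tested with limma on log2(FPKM + 1). A call needs an adjusted p under 0.05 by the Benjamini-Hochberg method. In kumquat 28 proteins were higher and 16 lower, and 31 were without a call. Among all summed names, 58.7% were called (30.4% higher and 28.3% lower), a share that the 44 of 75 here do not stand apart from. With a replicate block more of the 75 were called, 37 higher and 21 lower, against 2925 higher and 2732 lower of 9093 names. Higher calls outnumbered lower ones less under median scaling of the libraries, with 21 higher and 19 lower. The changes were narrow. The sums of 52 proteins lay within 25% of each other in the species, and 1 of 75 changed at least 2-fold, where 19.4% of all summed names did. The large subunit had 17 of 45 proteins higher and 9 lower, and the small subunit 11 of 30 higher and 7 lower. With ribosomal GO models only, 28 of 70 proteins were higher and 14 lower, against 58.8% called in either direction in that table, and 62 of the 70 had the call they had before.

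**Figure D2:**
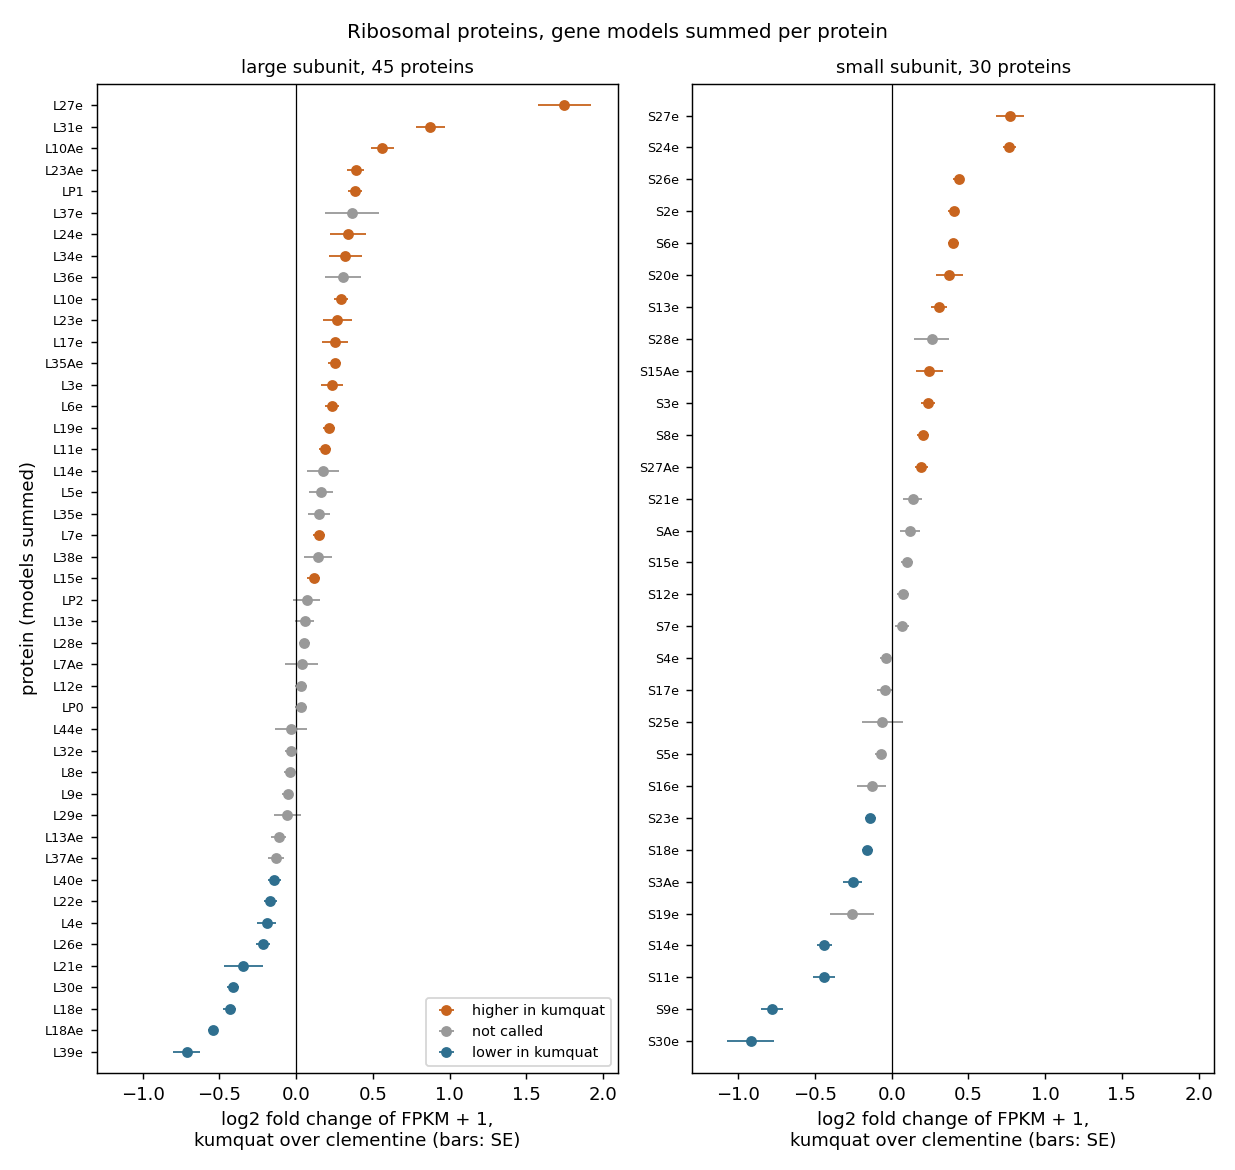
Log2 fold change (x axis, kumquat over clementine, FPKM + 1) of each of 75 ribosomal proteins, models summed, in the large subunit (left) and the small subunit (right), with SE bars from limma; orange is higher in kumquat, blue lower and grey not called. Most points lie close to 0, and L27e, the protein with the lowest level, is the single one past a 2-fold change.

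L27e, a large subunit protein with 1 gene model, had the largest rise of its subunit. It stood at 113, 78.0 and 81.2 FPKM in kumquat, against 20.7, 27.2 and 30.8 FPKM in clementine. The libraries did not overlap, and the log2 fold change was 1.75 ± 0.17 (SE, limma adjusted p = 8.43e-05). This level was the lowest of the 75 proteins in both species. The median protein stood at 523 FPKM in kumquat and 498 FPKM in clementine. Whether models outside the rule also encode L27e was not tested. L31e, which sits at the rim of the tunnel through which the new peptide leaves, had 148, 178 and 189 FPKM in kumquat and 86.9, 92.4 and 99.2 FPKM in clementine (log2 fold change 0.87 ± 0.09, limma adjusted p = 0.000118). Every kumquat library was above every clementine one for this protein too. L10Ae, part of the mobile stalk beside the exit of used transfer RNA, had 606, 679 and 686 FPKM in kumquat and 402, 469.6 and 464 FPKM in clementine. Its log2 fold change was 0.56 ± 0.07 (limma adjusted p = 0.000355). Its most abundant model in kumquat, Ciclev10012047m, also carries the names collagen and U3 small nucleolar RNA-associated protein 19, while the single model with a ribosomal GO term, Ciclev10030134m, was also higher by a log2 of 0.50.

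Of the large subunit sums that fell, L39e, a very small protein lining the exit tunnel, had 223, 272 and 285 FPKM in kumquat and 432, 405 and 438 FPKM in clementine. The libraries did not overlap (log2 fold change -0.71 ± 0.09, limma adjusted p = 0.000268). The other large falls rested on models that need not be ribosomal. L18Ae summed to 1513, 1522 and 1518 FPKM in kumquat and 2237, 2208 and 2196 FPKM in clementine (log2 fold change -0.54, limma adjusted p = 6e-06). Its 3 models with a ribosomal GO term summed to 404, 494 and 487 FPKM in kumquat and 389, 437 and 431 FPKM in clementine, which overlapped and were not called (log2 fold change 0.14, limma adjusted p = 0.201). L18e changed sides altogether. Its 15 models summed to 1035, 1049 and 1083 FPKM in kumquat and 1361, 1482 and 1436 FPKM in clementine, a log2 fold change of -0.43 (limma adjusted p = 8.58e-05). Its 3 models with a ribosomal GO term were at 586, 619 and 635 FPKM in kumquat and 447, 497 and 469 FPKM in clementine, a log2 fold change of 0.38 (limma adjusted p = 0.000429).

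Among further large subunit proteins named by rule, L3e and L10e were higher and L40e lower in kumquat. L3e, which reaches towards the site of peptide bond formation, had 379.6, 441 and 439 FPKM in kumquat and 330.1, 366 and 372 FPKM in clementine. The difference was called in limma (log2 fold change 0.23, adjusted p = 0.023), but was not called when kumquat replicate 2, kumquat replicate 3 or clementine replicate 1 was left out, with adjusted p from 0.0665 to 0.0777, or after median scaling (adjusted p = 0.0513). L10e, which joins the large subunit late in its assembly, had 952, 921 and 986 FPKM in kumquat and 815, 756 and 761 FPKM in clementine (log2 fold change 0.29, limma adjusted p = 0.000845). L40e, made as a fusion to ubiquitin, had 619.5, 668 and 682 FPKM in kumquat and 717, 727 and 728 FPKM in clementine. Its libraries did not overlap, yet the call (log2 fold change -0.14, limma adjusted p = 0.0244) was lost without clementine replicate 2 or 3 (adjusted p = 0.0752 and 0.0759).

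In the small subunit, S27e and S24e rose most. S27e, a zinc-binding protein, summed to 1019, 1230.5 and 1272 FPKM in kumquat and 629, 719 and 709 FPKM in clementine (log2 fold change 0.77 ± 0.09, limma adjusted p = 0.000187). S24e summed to 732, 781 and 793 FPKM in kumquat and 454, 447 and 452 FPKM in clementine (log2 fold change 0.77 ± 0.04, limma adjusted p = 3.09e-06). S26e, which lies where the message leaves the small subunit, summed to 631, 647 and 652 FPKM in kumquat and 485, 466 and 473 FPKM in clementine (log2 fold change 0.44, limma adjusted p = 2.82e-05). For these 3 proteins no clementine library reached the lowest kumquat one. S6e, the ribosomal protein phosphorylated by S6 kinase downstream of the growth regulator TOR, had 591, 593 and 613 FPKM in kumquat and 451, 451 and 457 FPKM in clementine. It was higher in kumquat by a log2 of 0.40 ± 0.03 (limma adjusted p = 3.77e-05), with no overlap.

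S30e and S9e fell most in the small subunit. S30e, in animals made as a fusion to a ubiquitin-like protein, had 113, 155 and 162 FPKM in kumquat and 224, 294 and 295 FPKM in clementine (log2 fold change -0.92 ± 0.15, limma adjusted p = 0.00133). S9e, found near the channel by which the message enters, had 443, 523 and 512 FPKM in kumquat and 791, 870.1 and 881 FPKM in clementine (log2 fold change -0.78 ± 0.07, limma adjusted p = 5.36e-05). S11e, with 1 model, had 305, 364 and 356 FPKM in kumquat and 438, 476 and 474 FPKM in clementine (log2 fold change -0.44, limma adjusted p = 0.00114). All kumquat libraries were below all clementine ones for these 3 proteins. S27Ae, a second ubiquitin fusion, went the other way from L40e, at 918, 859 and 889 FPKM in kumquat and 791, 794 and 749.6 FPKM in clementine (log2 fold change 0.19, limma adjusted p = 0.00543). S15Ae had 565, 724 and 692 FPKM in kumquat and 533, 565 and 563 FPKM in clementine. The lowest kumquat library overlapped the clementine ones. It was called with all 6 libraries (log2 fold change 0.25, limma adjusted p = 0.0416) but not under median scaling, with no filter, or without kumquat replicate 2 or 3 or any 1 clementine library. SAe, whose animal counterpart is also known as a laminin receptor, had 305, 271 and 282 FPKM in kumquat and 286, 251 and 254 FPKM in clementine, and was not called (log2 fold change 0.12, limma adjusted p = 0.155). Without clementine replicate 1 it was called, at a log2 fold change of 0.18 (limma adjusted p = 0.0351).

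The P-stalk is the flexible arm of the large subunit that recruits elongation factors. LP0 anchors it, and LP1 and LP2 bind to LP0 as pairs. The 9 stalk models together held 0.264, 0.290 and 0.294% of the FPKM sum in kumquat and 0.243, 0.259 and 0.257% in clementine, with no overlap. Against the rest of the large subunit the stalk stood at 0.0804, 0.0826 and 0.0822 in kumquat and 0.0738, 0.0745 and 0.0744 in clementine, a log2 difference of 0.14. Against large subunit models with a ribosomal GO term, it stood at 0.0949, 0.0960 and 0.0955 in kumquat and 0.0918, 0.0920 and 0.0919 in clementine. This log2 difference was smaller, at 0.055, and also showed no overlap. These models include Ciclev10002863m of LP1, so this ratio divides the stalk in part by itself, unlike the one before. LP0 has 1 model, Ciclev10032141m, with 424, 443 and 442 FPKM in kumquat and 417, 434 and 432 FPKM in clementine. These overlapped, and the log2 difference of 0.030 turned to -0.020 after median scaling. LP1 rose as a sum, at 672, 713 and 732 FPKM in kumquat and 543, 553 and 525 FPKM in clementine (log2 fold change 0.38, limma adjusted p = 0.000179).

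The main LP1 model, Ciclev10002863m, had 355, 454 and 455 FPKM in kumquat and 276, 318 and 302 FPKM in clementine (log2 fold change 0.49, limma adjusted p = 0.00588). A second, Ciclev10022792m, had 291, 232 and 255 FPKM in kumquat and 238, 206 and 195 FPKM in clementine, with 1 clementine library above 1 kumquat library. Its call (limma adjusted p = 0.0492) was lost when any of 4 single libraries was left out and with another pseudocount, filter or scaling, with adjusted p from 0.0576 to 0.152. The other 3 LP1 models, Ciclev10014217m, Ciclev10014215m and Ciclev10022972m, stayed under 17 FPKM in every library and were not called, although Ciclev10014217m was called lower without kumquat replicate 1 (limma adjusted p = 0.0222). LP2 did not differ as a sum (limma adjusted p = 0.543), but its models did. Ciclev10013051m had 357, 384 and 409 FPKM in kumquat and 290.1, 283 and 275 FPKM in clementine, and was higher (log2 fold change 0.43, limma adjusted p = 0.000725). Ciclev10029619m had 25.7, 40.4 and 32.1 FPKM in kumquat and 53.5, 66.4 and 63.7 FPKM in clementine, and was lower (log2 fold change -0.90, limma adjusted p = 0.00218). It shares its protein match with Ciclev10029621m, the most abundant LP2 model, which had 346, 456 and 467 FPKM in kumquat and 388, 474 and 499.9 FPKM in clementine. The sum of both overlapped between the species and was not called (limma adjusted p = 0.259).

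**Figure D3:**
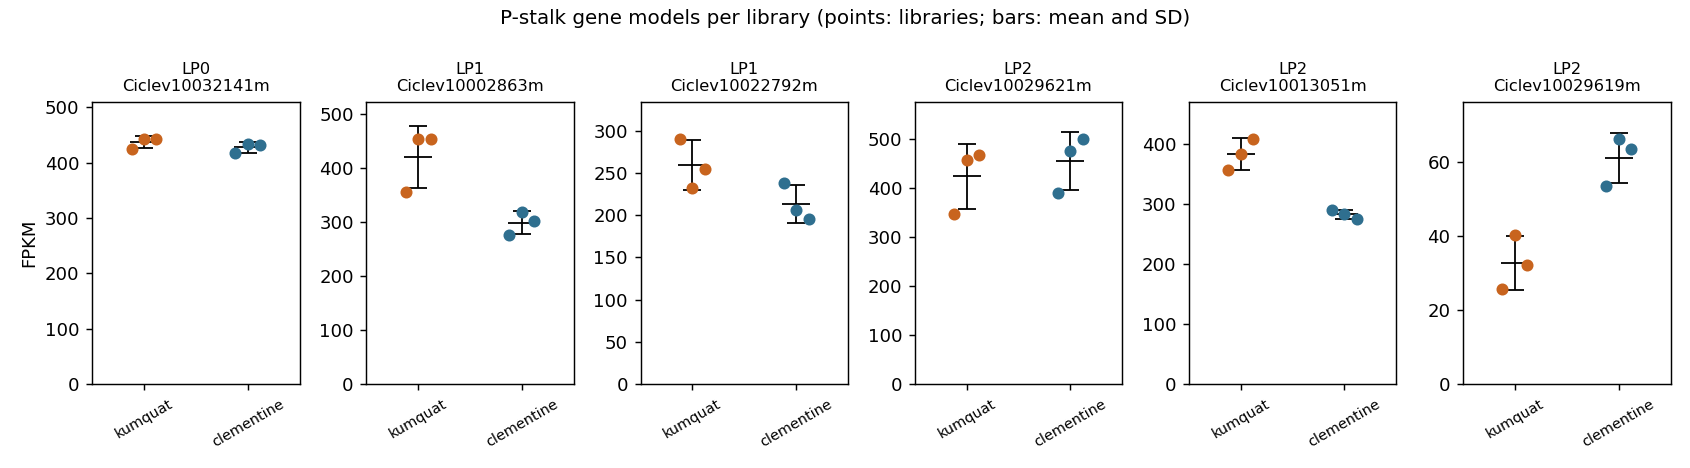
FPKM per library (y axes from 0, each panel on its own scale) of the 6 P-stalk gene models with a mean above 20 FPKM, kumquat left in orange and clementine right in blue, with mean and SD bars of 3 libraries. LP0 overlaps, the main LP1 model and one LP2 model are higher in kumquat, and Ciclev10029619m is lower.

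Single gene models were called at about the share of all models. The filter asks for 3 or more libraries with 1 FPKM or more, and 290 members passed it while 68 did not and were not tested. Of the 290, limma called 85 higher in kumquat and 83 lower, and made no call for 122. The 168 calls are 57.9% of those tested, against 57.1% of all 22050 models, of which 29.9% were higher and 27.1% lower. At least 2-fold changes were fewer among the higher members, with 21 of 290 against a background of 12.4%, and about as frequent among the lower ones, with 37 against 12.1%. The median log2 fold change was 0.064 over the members and 0.041 over all tested models. The annotation classes differed in these counts. With a ribosomal GO term, 54 of 170 tested were higher and 37 lower, with a median of 0.11. With another name or GO term, 17 of 67 were higher and 27 lower, including 18 that fell at least 2-fold, with a median of -0.14.

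Models with a ribosomal GO term also changed little in size. At a mean of at least 100 FPKM there were 101 of them, and their median absolute log2 fold change was 0.23, against 0.38 for all 1252 models at that level. Of the 101, 55 were called, where 71.5% of all models at that level were, and 1 changed at least 2-fold, against 241 of the 1252. The spread within a species did not run that way, with a median SD of 0.0969 on the log2 scale for the 101 and 0.0854 for the 1252.

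**Figure D4:**
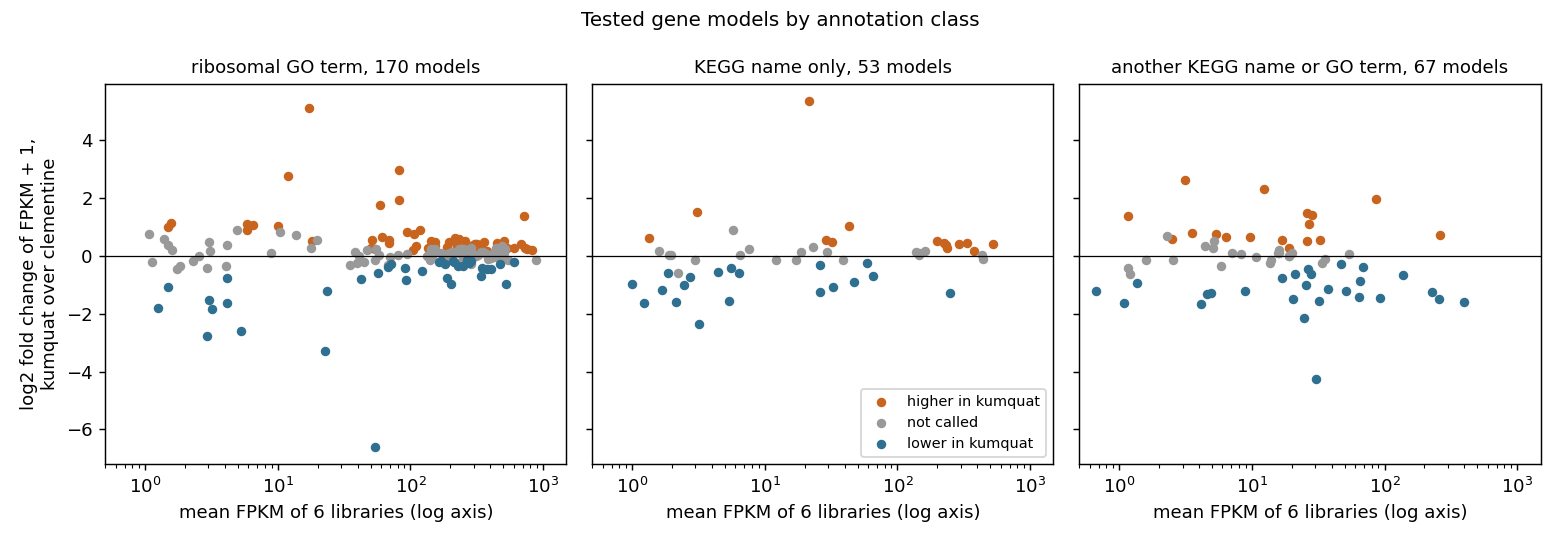
Log2 fold change (y axis, kumquat over clementine, FPKM + 1) against mean FPKM of 6 libraries (x axis, log scale) for the 290 tested models, in 3 panels by annotation class; orange is higher in kumquat, blue lower and grey not called. Above 100 FPKM the models with a ribosomal GO term lie close to 0, with 1 past a 2-fold change.

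The most abundant large subunit models were close between the species. Ciclev10026308m, annotated as L8e, a core protein near the site of peptide bond formation, had 860.1, 819.9 and 838 FPKM in kumquat and 950.3, 912 and 893 FPKM in clementine. The libraries did not overlap, but the difference was not called (log2 fold change -0.13, limma adjusted p = 0.0718). It was called after median scaling and without kumquat replicate 1 (adjusted p = 0.0244 and 0.0445). Ciclev10005909m (L19e, which takes part in a bridge between the subunits) had 787, 849 and 832 FPKM in kumquat and 687, 693 and 696 FPKM in clementine (log2 fold change 0.25, limma adjusted p = 0.00487). Ciclev10032703m, the main L10e model, had 795, 761 and 836 FPKM in kumquat and 693, 636 and 640.2 FPKM in clementine (log2 fold change 0.28, limma adjusted p = 0.00608). Both were higher in every kumquat library.

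Rises and falls of single models were ranked among called members with no overlap between the species and at least 10 FPKM in the higher one. The largest such rises in the large subunit began with a pair listed at 0 in clementine. Ciclev10033291m (L37e) had 23.4, 46.5 and 59.5 FPKM in kumquat and was listed at 0 in all 3 clementine libraries. Ciclev10029636m (L36e) had 26.0, 37.0 and 39.3 FPKM in kumquat and was also listed at 0 in the clementine ones. Neither was the main model of its protein in either species. The L37e sum was not called (limma adjusted p = 0.113), and Ciclev10006271m, the main L36e model, had 480.5, 589 and 614 FPKM in kumquat and 396, 520.2 and 514 FPKM in clementine and was not called (limma adjusted p = 0.163). Ciclev10023250m (L29e) had 16.3, 22.9 and 25.2 FPKM in kumquat and 2.75, 1.40 and 2.68 FPKM in clementine, but summed with the model of the same protein match it was not called (limma adjusted p = 0.0828). The other named rises carried further names. Ciclev10012421m (L6e, also named omega-6 fatty acid desaturase) had 20.4, 21.8 and 20.7 FPKM in kumquat and 5.48, 2.23 and 3.04 FPKM in clementine. Ciclev10008293m (L18Ae, also saccharopepsin) had 140.0, 143 and 134 FPKM in kumquat and 35.0, 34.0 and 34.5 FPKM in clementine.

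Under the same ranking, limited to at least 10 FPKM in clementine, none of the 5 largest falls of large subunit models had a ribosomal GO term. Ciclev10022839m, named both L18e and ubiquitin carboxyl-terminal hydrolase, had 3.11, 1.76 and 1.73 FPKM in kumquat and 61.4, 60.9 and 53.7 FPKM in clementine (log2 fold change -4.24, limma adjusted p = 1.4e-06). Another 3 were L18Ae models with a peptidase GO term. The most abundant of them, Ciclev10001212m, had 198, 195 and 205 FPKM in kumquat and 605, 592 and 608 FPKM in clementine (log2 fold change -1.59, limma adjusted p = 3.37e-07). Ciclev10019848m had 151, 128 and 126 FPKM in kumquat and 401, 371 and 367 FPKM in clementine, and Ciclev10031364m had 16.0, 16.1 and 15.7 FPKM in kumquat and 48.6, 49.0 and 47.6 FPKM in clementine. Of the 14 tested L18Ae models with a peptidase GO term, 8 were lower and 2 higher. Ciclev10016329m, an L7Ae model whose GO terms name ribonucleoprotein biogenesis, had 8.32, 11.9 and 10.5 FPKM in kumquat and 24.5, 37.9 and 30.2 FPKM in clementine.

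Small subunit models were ranked under the same limits, which leave out models that stayed under 10 FPKM in the higher species. Of the 10 models so named for the largest rises and falls, 8 did carry a ribosomal GO term. Ciclev10006194m (S24e) had 150.0, 143 and 149.6 FPKM in kumquat and 19.6, 18.8 and 15.0 FPKM in clementine, a log2 fold change of 2.99 ± 0.10 (limma adjusted p = 6.09e-07). Ciclev10033065m (S15Ae) had 114, 145 and 131 FPKM in kumquat and 36.2, 34.8 and 28.7 FPKM in clementine (log2 fold change 1.93, limma adjusted p = 8.58e-06). Ciclev10017332m (S27e), also among the 3 most abundant of the subunit, had 905, 1090.4 and 1134 FPKM in kumquat and 360.1, 421 and 421 FPKM in clementine (log2 fold change 1.37 ± 0.10, limma adjusted p = 2.71e-05). In these 3 models every kumquat library was more than 2-fold above the mean of clementine. Ciclev10022404m (S7e, log2 fold change 0.65) and Ciclev10033072m (S26e, 1.12, with other GO terms) rose less. The remaining abundant models, Ciclev10032969m (S27Ae) and Ciclev10005613m (S2e, near the message entry), averaged 882 ± 26.0 and 776 ± 7.51 FPKM in kumquat and 765 ± 27.1 and 578 ± 7.56 FPKM in clementine (SD, n = 3 each). Both were called higher, but Ciclev10032969m was not without clementine replicate 3 (limma adjusted p = 0.0681).

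The deepest fall of all members was in S27e as well. Ciclev10017430m was at 0, 0.380 and 0 FPKM in kumquat and at 97.2, 111 and 116 FPKM in clementine (limma adjusted p = 1.8e-07). Whether kumquat reads match this model as well as clementine reads was not tested. Ciclev10012777m (S5e, which contacts the message at its exit) had 3.49, 1.49 and 6.34 FPKM in kumquat and 46.2, 40.3 and 38.5 FPKM in clementine. It shares a protein match with Ciclev10012779m, and their sum was 271, 269 and 263 FPKM in kumquat and 274, 289 and 276 FPKM in clementine, which was not called (limma adjusted p = 0.296). Ciclev10009868m carried most of S30e and Ciclev10032800m most of S9e, with log2 fold changes of -0.98 each. Ciclev10008452m (S3Ae, also FLS2) fell to 8.70, 8.51 and 8.06 FPKM in kumquat, against 42.5, 43.2 and 36.6 FPKM in clementine, and has a receptor kinase name beside the ribosomal one.

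Copies of 1 protein moved in opposite directions about as often as gene models of other shared names. Of 68 proteins with at least 2 models, 28 (41.2%) had both a higher and a lower model, against 41.0% of all 2666 KEGG names with at least 2 models. The most abundant model by mean share differed between the species in 10 of the 68, and in 532 of the 2666. With ribosomal GO models only, these were 15 and 7 of 57 proteins. The share over all names depends on the number of models, at 18.1% opposed with 2 to 4 models and 66.4% with 5 or more. The 57 proteins were not set against a share matched for this. In 11 of the 15 the opposed models had different protein matches, so they were not copies of the same match. The 6 proteins whose shares shifted most were chosen after their values were seen. In S27e, Ciclev10017332m supplied 91.1, 91.0 and 91.3% of the ribosomal GO total in kumquat and 60.3, 61.2 and 62.0% in clementine. Ciclev10017335m supplied 8.85% on average in kumquat and 22.2% in clementine, and Ciclev10017430m 0.0106% in kumquat and 16.5% in clementine. The S27e rise therefore came from 1 model, while the other 2 were lower.

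In L22e, Ciclev10022870m supplied 68.4, 69.5 and 69.7% in kumquat and 55.1, 48.3 and 48.7% in clementine, and its partner Ciclev10006199m was lower (log2 fold change -0.84, limma adjusted p = 6.38e-05). In S24e, Ciclev10006194m supplied 21.3, 18.8 and 19.5% in kumquat and 4.56, 4.38 and 3.47% in clementine, with Ciclev10002819m the main model in both. This main model was higher too, at 556, 615 and 617 FPKM in kumquat and 410.4, 412 and 417 FPKM in clementine. In S15Ae, Ciclev10033065m rose to 19.7% on average in kumquat, against 6.02% in clementine, and Ciclev10029569m fell to 29.9% in kumquat, against 41.1% in clementine. In L3e, Ciclev10001453m supplied 38.6, 34.9 and 37.6% in kumquat and 23.5, 23.5 and 22.5% in clementine, while Ciclev10001454m, the main model, was not called (limma adjusted p = 0.663). The L3e rise thus lay in the less abundant model. In S5e the shift of Ciclev10012779m to 85.7% in kumquat, against 70.5% in clementine, involved the shared match given above, and reads of near-identical copies could be split between them, so the division between these copies is uncertain. In L40e, Ciclev10013105m supplied 49.4, 57.2 and 55.7% in kumquat and 39.9, 46.1 and 47.1% in clementine, and Ciclev10022855m supplied 49.9, 42.1 and 43.4% in kumquat and 59.1, 52.9 and 52.1% in clementine. The main model was therefore Ciclev10013105m in 2 of the 3 kumquat libraries and Ciclev10022855m in the other and in clementine.

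**Figure D5:**
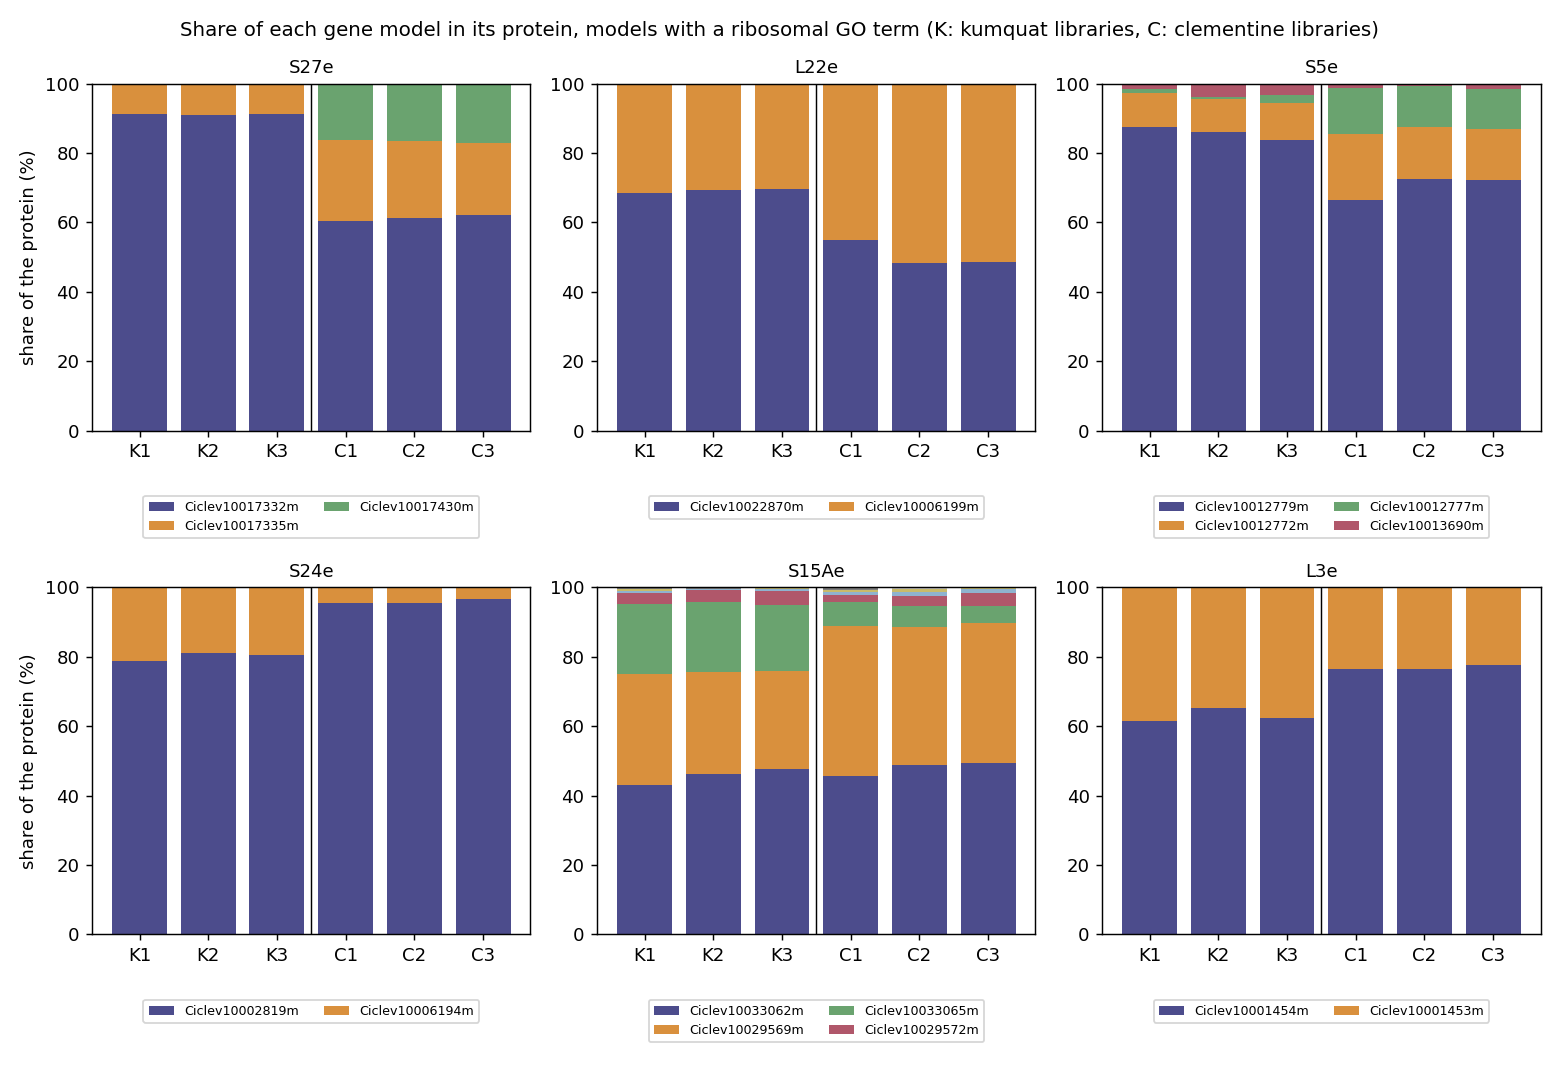
Share of each gene model in the FPKM of its protein (y axis, percent, models with a ribosomal GO term) in the 3 kumquat libraries (K1 to K3, left of the line) and the 3 clementine libraries (C1 to C3), for the 6 proteins with the largest shift. In S27e the top model holds about 91% in kumquat and about 61% in clementine, and Ciclev10017430m is nearly absent from kumquat; the smallest S15Ae models have no legend entry.

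The middle range of levels among the 75 proteins was wider in kumquat. The upper quartile over the lower quartile of their summed FPKM was 1.65, 1.69 and 1.67 in the kumquat libraries and 1.43, 1.46 and 1.42 in the clementine libraries. With ribosomal GO models only it was 1.80, 1.73 and 1.76 in kumquat and 1.64, 1.62 and 1.55 in clementine. The libraries of the species did not overlap in either set. The coefficient of variation went the other way over all models, at 42.5 to 45.1% in kumquat and 51.0 to 54.2% in clementine, but not with ribosomal GO models only, at 44.4 to 46.1% in kumquat and 40.1 to 42.4% in clementine.

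Other genes of the translation machinery were counted from lists on the KEGG name, against the same background of 29.9% higher and 27.1% lower. Bacterial-type ribosomal proteins, the counterpart in plastids and mitochondria, had 26 of 152 tested models higher and 52 lower. Their summed level was 0.555, 0.572 and 0.570% in kumquat and 0.683, 0.693 and 0.687% in clementine, with no overlap. Of the marker sums given above, those of green tissue and dividing cells were also lower in kumquat. Those of seeds and vascular tissue were higher, and a link to any of them was not tested. Ciclev10033281m, annotated as L28, had 173, 200.1 and 215 FPKM in kumquat and 354, 396 and 402 FPKM in clementine, and Ciclev10016628m, annotated as L2, was higher by a log2 of 0.83. Initiation factors had 51 of 157 higher and 30 lower. Among them Ciclev10022624m, annotated as eIF5A, which helps the ribosome join difficult residues, had 961, 908 and 939 FPKM in kumquat and 845, 815 and 783 FPKM in clementine (limma adjusted p = 0.017). This call was lost under median scaling and without kumquat replicate 3 or clementine replicate 2 or 3, with adjusted p from 0.0505 to 0.0778. Ciclev10011861m, annotated as eIF-2B epsilon, was lower by a log2 of 0.56 on the same scale, at 263 ± 11.9 FPKM in kumquat and 387 ± 15.6 FPKM in clementine (SD, n = 3 each).

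Elongation factors, which the P-stalk recruits, had 10 of 29 tested models higher and 14 lower. The lower count was 8 without any 1 clementine library. Copies of elongation factor 1-alpha, which delivers transfer RNA, were opposed too. Ciclev10028445m had 935, 834 and 824 FPKM in kumquat and 592, 524 and 499.7 FPKM in clementine, and Ciclev10028443m had 315, 251 and 249.9 FPKM in kumquat and 461, 379 and 368 FPKM in clementine (limma adjusted p = 0.000305 and 0.00491). Genes of ribosome assembly had 63 of 186 higher and 37 lower. Nucleolin (Ciclev10030875m) averaged 138 ± 3.94 FPKM in kumquat and 116 ± 6.05 FPKM in clementine, and a model annotated as U3 small nucleolar RNA-associated protein 12 (Ciclev10006049m) 248 ± 12.2 FPKM in kumquat and 407 ± 30.5 FPKM in clementine (SD, n = 3 each), both called. RNA polymerase I, which transcribes ribosomal RNA, had 6 of 23 higher and 6 lower, with 3 lower when clementine replicate 2 or 3 was left out. Its subunit RPA49 (Ciclev10025597m) was higher by a log2 of 0.63, and the shared subunit RPABC2 (Ciclev10006171m) had a log2 fold change of -0.44. Aminoacyl-tRNA synthetases, which charge transfer RNA, had 29 of 91 higher and 20 lower. The higher count was 16 without kumquat replicate 1 and 18 without kumquat replicate 2, and the lower count was 13 without clementine replicate 2 or 3. The most abundant called models were a threonyl-tRNA synthetase (Ciclev10012107m, also named clathrin light chain B, log2 fold change 0.26) and a seryl-tRNA synthetase (Ciclev10001143m, log2 fold change -0.26). The seryl-tRNA synthetase was not called without kumquat replicate 3 or clementine replicate 3 (limma adjusted p = 0.0550 and 0.0740).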

How the data were processed

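RNA of pooled fruit was sequenced on an Illumina instrument, per the labels' protocols. The authors deposited 1 table of FPKM per gene model, per the file headers. HISAT, StringTie and DESeq2 stand in the submitters' processing notes, without roles or versions. The genome build is not given in the sources used here, and coordinates are left out. Both species share one set of gene models, whose Ciclev identifiers look like those of Citrus clementina. Whether kumquat reads match these models as well as clementine reads was not tested. This limit applies to every comparison of the species here, including models near 0 in kumquat and shares among copies. FPKM are not counts, total depth is unknown, and a value of 0 can be a failed estimate.

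The fit used limma 3.58.1 (R 4.3.3; trended prior, kumquat minus clementine, two-sided) on log2(FPKM + 1), which understates changes of low models, for models that reached 1 FPKM in 3 or more libraries. Benjamini-Hochberg adjustment ran over the whole table, and a call is an adjusted p under 0.05. The same fit was run on FPKM summed per first KEGG name, per protein match, and per KEGG name with ribosomal GO models only. The fit was tested on simulated data. Totals and ratios had an exact permutation test planned and are given per library with no p-value, since 3 against 3 libraries cannot give a p below 0.10. The named members and gene lists were chosen with earlier results of these data known, and the annotation classes after reading the annotation.

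Named models were, per subunit, the 5 largest rises and falls among called members with no overlap between the species and at least 10 FPKM in the higher one, the 3 most abundant, all P-stalk models, 7 fixed proteins, the 3 largest rises and falls of summed proteins, and the most abundant called model of each companion list in each direction. Alternatives were another pseudocount (0.1), no filter or 5 FPKM, median scaling, a replicate block, each library left out, sums per protein match, and totals without the 100 most abundant models. Pearson's r between deviations of same-numbered libraries was 0.119, 0.0424 and 0.0657, so the numbers were not taken to pair the libraries.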

Additional observations from a re-analysis of the deposited data

How the results depend on the processing

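When 1 library was left out, 132 to 171 members were called, among them 130 to 150 of the 168 called with all libraries, and 35 to 51 proteins, among them 35 to 43 of the 44. With a replicate block the fit called 194 members (105 higher, 89 lower) and 58 proteins (37 higher, 21 lower). Over all models that fit called 6772 higher and 6172 lower of 22050, and over all summed names 2925 and 2732 of 9093. The 58 of 75 proteins were a larger share than that over all names. SAe, Ciclev10026308m and Ciclev10029621m were called in that fit as well. In deviations from the species means, every library correlated best with the library of its own number in the other species. This is a hint from the data and not from the design. With ribosomal GO models only, a choice made after the data were seen, 91 members were called (54 higher, 37 lower), 15 proteins had opposed models, and the log2 difference of large over small subunit turned to 0.034, against -0.058. Counting protein matches in place of proteins gave 147 called (78 higher, 69 lower). The members have 305 distinct matches, tested or not, against 75 names. Over the whole table summed per match, 6309 of 19365 tested were higher and 5549 lower. The small subunit total, higher in kumquat by 0.134 percentage points, turned to -0.0172 without the 100 most abundant models. By mean FPKM those 100 include the small subunit models Ciclev10032969m, Ciclev10017332m and Ciclev10005613m, at ranks 54, 68 and 77, all called higher in kumquat. The 2 totals therefore do not hold the same members. The total over the members left differed by 0.0664 percentage points, and that over all members by 0.107 to 0.361 when 1 library was left out. Without both libraries numbered 1, also chosen after the data were seen, 167 members (95 higher, 72 lower) and 58 proteins were called. Over all models 5315 of 19357 were then higher and 4534 lower, and over all summed names 2593 of 8336 and 2209. The share of proteins called was again larger than that over all names. On the log2 scale LP0 (Ciclev10032141m) turned to -0.020 under median scaling, and leaving out 1 library gave -0.12 to 0.071 for Ciclev10014215m and -0.22 to 0.030 for Ciclev10029621m. The cause was not tested. Of the other values under other settings, 800 had the same direction and call, 27 lost the call, 7 gained it and 12 counts moved. Depth is unknown, so the limit on low models cannot be stated.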
